A study of Mus musculus with 9 samples.

Results

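The xenobiotic receptors PXR (gene Nr1i2) and CAR (gene Nr1i3), their shared partner Rxra and 7 genes of the P450 system, known targets among them, were followed in mouse liver RNA. Earlier results of these data were known when the genes were chosen. The 10 genes, taken by symbol, were Nr1i2, Nr1i3, Rxra, Cyp3a11, Cyp3a13, Cyp3a25, Cyp3a59, Cyp2b10, Cyp2a5 and Por. They are 10 of the 54393 genes in the deposited table, and all 10 were among the 14873 genes with enough counts to be tested. The study compared livers of conventional mice with livers of mice whose gut microbiota had been depleted. All mice carried the strain label C56Bl/6j and ate the purified diet AIN-76a. The control group (5 libraries, replicates 1 to 5) received no antibiotics, and the antibiotics group (4 libraries, replicates 1, 2, 3 and 5) received non-absorbed antibiotics. The labels name no agent, dose, duration, age or engineered allele.

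PXR and CAR are nuclear receptors that sense drugs, bile acids and other foreign or toxic molecules. PXR is turned on by ligands that bind it, while CAR is held in the cytoplasm and moves to the nucleus after activation. Each pairs with RXRα (Rxra) and binds DNA elements made of pairs of AGGTCA-like letters near genes for P450 enzymes, conjugating enzymes and transporters. In liver, Cyp3a genes are the usual readout of PXR and Cyp2b10 that of CAR, and both receptors act on overlapping sets of genes. P450 enzymes take their electrons from the reductase encoded by Por. The transcripts of the receptors do not report receptor activity, so receptor and target levels are given separately.

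Library totals ran from 28156248 to 49628737 estimated counts in controls and from 15422891 to 59179622 with antibiotics, and antibiotics library 5 was the deepest of all. Levels are given as normalised read counts in CPM, which scales each count to the size of its library after TMM, a method that evens out library composition. Hepatocyte markers summed to between 83644 and 100762 CPM in controls and between 81475 and 92096 CPM with antibiotics, so genes that define hepatocytes were abundant in every library. None of the 8 hepatocyte and 6 Kupffer cell markers passed the test. All 6 Kupffer markers had log2 fold changes below 0, with a median of -0.44, and their sum ran from 131 to 387 CPM in controls and from 132 to 171 CPM with antibiotics. Control library 2 alone held the upper end (387 CPM), and the other controls ran from 131 to 184 CPM. The part of Kupffer cell content in the results was not tested. The pancreatic markers Prss2, Pnlip and Ctrb1 were at 0 in every library. In bulk liver, fewer cells of a type and less RNA per cell cannot be told apart. Nothing in the labels ties each library to a separate mouse, and p-values therefore cover the spread from library to library only.

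In the quasi-likelihood test of edgeR, with Benjamini-Hochberg adjustment over all tested genes, 2 of the 10 genes passed an adjusted p of 0.05, Por and Cyp3a13, both higher with antibiotics. Of all tested genes, 2.68% passed in either direction, 1.63% higher and 1.05% lower. DESeq2 passed 4 of the 10, Nr1i3 and Cyp2a5 besides Por and Cyp3a13, and 6.57% of all genes it could adjust. Fitted log2 fold changes (antibiotics over control) were above 0 for 9 of the 10 genes and for 48.6% of all tested genes. Among the 9, the 95% intervals of Rxra, Cyp3a25, Cyp3a59 and Cyp2b10 included 0. The median of the 10 was 0.34 beside a median of -0.01 over all tested genes. Cyp3a11, the most studied PXR target of mouse liver, was the only one of the 10 with a value below 0. With 9 libraries the test recovered 34% of genes changed 1.5-fold and 76% of those changed 2-fold in simulated counts, so a gene that missed the threshold is not shown to be unchanged.

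**Figure D1:**
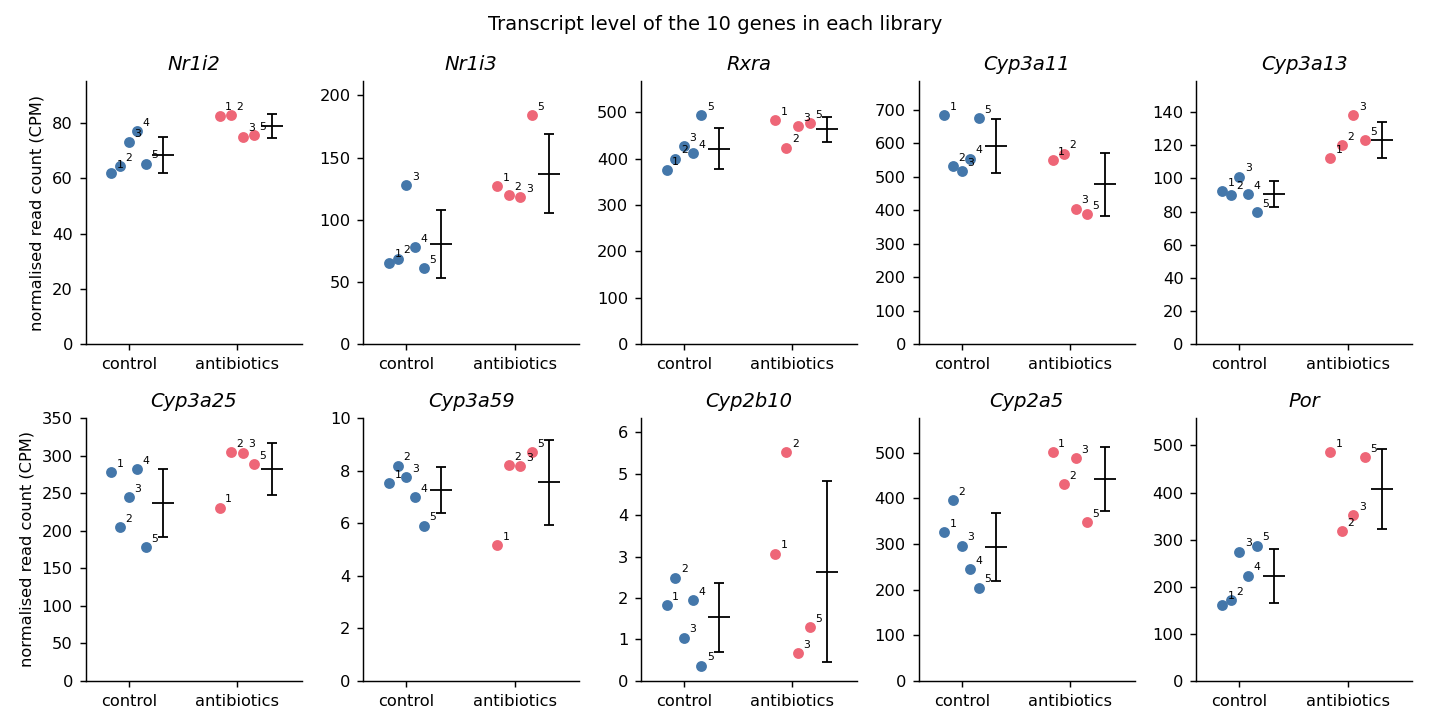
Normalised read count (CPM) of each of the 10 genes by library. Points are libraries, numbered by replicate, and bars are the mean and SD of 5 control and 4 antibiotics libraries. The groups are apart for Cyp3a13 and Por, and library 3 stands above the other controls for Nr1i3.

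The sequence upstream of 4 Cyp3a genes is shown because Cyp3a25 and Cyp3a59 are near copies whose reads are hard to tell apart, and because Cyp3a11 and Cyp3a13 had fitted changes of opposite sign. All 10 genes matched a RefSeq promoter entry. The sequences are from RefSeq promoter entries on GRCm38.p6, written 5′ to 3′ on the strand of the gene. The first pair lies before Cyp3a25 (chr5:146009619-146009867, minus strand) and Cyp3a59 (chr5:146079008-146079256, plus strand), and capitals mark the bases at which they differ.
Cyp3a25: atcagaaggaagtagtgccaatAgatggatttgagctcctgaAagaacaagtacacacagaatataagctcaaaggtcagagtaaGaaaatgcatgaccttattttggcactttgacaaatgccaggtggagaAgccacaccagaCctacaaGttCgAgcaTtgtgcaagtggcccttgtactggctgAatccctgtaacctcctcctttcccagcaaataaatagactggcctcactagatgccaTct
Cyp3a59: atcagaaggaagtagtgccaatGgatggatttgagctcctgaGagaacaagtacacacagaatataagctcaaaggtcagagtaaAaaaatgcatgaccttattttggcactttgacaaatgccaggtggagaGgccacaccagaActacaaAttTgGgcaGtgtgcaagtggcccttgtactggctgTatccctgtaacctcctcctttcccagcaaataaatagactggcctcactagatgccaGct
The 249 bases differed at 11 positions, an identity of 95.6%. Each held the letters AGGTCA 2 times, searched on both strands.

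The second pair lies before Cyp3a11 (chr5:145879965-145880104, minus strand) and Cyp3a13 (chr5:137921620-137921869, minus strand). Here capitals mark AGGTCA and AGTTCA, read on either strand, the letters that PXR and CAR elements are built from.
Cyp3a11: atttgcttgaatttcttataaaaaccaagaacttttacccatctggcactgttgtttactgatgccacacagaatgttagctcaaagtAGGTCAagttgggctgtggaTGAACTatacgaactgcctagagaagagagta
Cyp3a13: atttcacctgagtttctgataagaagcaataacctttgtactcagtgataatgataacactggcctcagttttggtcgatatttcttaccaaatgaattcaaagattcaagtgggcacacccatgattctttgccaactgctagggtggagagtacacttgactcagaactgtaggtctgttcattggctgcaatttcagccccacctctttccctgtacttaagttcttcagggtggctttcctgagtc
Cyp3a11 held AGGTCA 162 bases and AGTTCA 142 bases before its RefSeq start, and the window of Cyp3a13 held neither. The RefSeq start of Cyp3a11 (145879854) lies inside its GENCODE gene, whose 5′ end is at 145879964. Its printed sequence was cut at that end and has 140 bases, beside 250 for Cyp3a13, so the distances run beyond the print. Over 27025 RefSeq promoter windows of 250 bases, 13.8% held AGGTCA and 11.9% held AGTTCA. A match is a description of the letters and not a binding site, and the absence of these letters in a window this short says nothing about the receptors.

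Among the receptors, Nr1i2 (ENSMUSG00000022809.4, chromosome 16, 38248323 to 38294824, GRCm38, minus strand) encodes PXR. It measured 61.7, 64.4, 73.0, 77.0 and 65.2 CPM in controls 1 to 5 and 82.5, 82.7, 75.0 and 75.5 CPM in antibiotics libraries 1, 2, 3 and 5. Antibiotics libraries 1 and 2 lay above every control, while libraries 3 and 5 lay within the control range. The log2 fold change was 0.21 ± 0.079 (SE, 95% interval 0.03 to 0.38), a ratio of 1.16, and the adjusted p was 0.19.

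Nr1i3 (ENSMUSG00000005677.14, chromosome 1, 171213970 to 171220701, plus strand) encodes CAR. It measured 65.5, 68.7, 128, 77.9 and 61.3 CPM in controls 1 to 5 and 127, 120, 118 and 184 CPM in antibiotics libraries 1, 2, 3 and 5. A single control, library 3, reached the level of the antibiotics libraries, and the other controls lay well below all of them. The log2 fold change was 0.78 ± 0.21 (SE, 95% interval 0.31 to 1.24), from 80.3 ± 27.4 CPM (SD, n = 5) to 137 ± 31.2 CPM (SD, n = 4), and the adjusted p was 0.0747. Without control library 3 the log2 fold change was 1.01 and the adjusted p 0.0127, the only 1 of 9 fits with 1 library left out that passed. Without antibiotics library 5 the log2 fold change was 0.60 and the adjusted p 0.208. DESeq2 on all 9 libraries gave an adjusted p of 0.00889. Exons of Nr1i3 overlap Tomm40l, a mitochondrial import gene on the opposite strand, and the sources do not say whether strand was used in counting. Tomm40l measured 13.8 ± 1.12 CPM in controls and 11.9 ± 1.08 CPM with antibiotics (adjusted p = 0.227).

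Rxra (ENSMUSG00000015846.14, chromosome 2, 27676440 to 27762957, plus strand) encodes the receptor that both PXR and CAR pair with. Its levels were 375, 400, 426, 412 and 493 CPM in controls and 482, 423, 470 and 476 CPM with antibiotics. The groups overlapped, and the log2 fold change of 0.14 ± 0.092 (SE, 95% interval -0.07 to 0.34) did not pass (adjusted p = 0.467). Within each library, the ratio of Nr1i3 to Nr1i2 counts was 1.51 times higher with antibiotics, a log2 difference of 0.59 (exact permutation test over 126 splits, two-sided p = 0.0397, adjusted over 5 ratios 0.0926). The ratio thus missed the threshold after adjustment. The smallest p this design can give is 0.00794.

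Cyp3a13 (ENSMUSG00000029727.7, chromosome 5, 137892932 to 137921619, minus strand) encodes a Cyp3a enzyme of liver and intestine. It measured 92.1, 90.1, 101, 90.6 and 79.5 CPM in controls 1 to 5 and 112, 120, 138 and 123 CPM in antibiotics libraries 1, 2, 3 and 5. Every antibiotics library lay above every control. Of the 10 genes, 2 had groups that did not overlap, Cyp3a13 and Por, both higher, as had 8.88% of all tested genes (4.59% higher and 4.29% lower with antibiotics). Cyp3a13 rose 1.36-fold, a log2 fold change of 0.44 ± 0.083 (SE, 95% interval 0.26 to 0.62, adjusted p = 0.0239). It passed in 5 of 9 fits that each left out 1 library, and the adjusted p was 0.0544, 0.0778 and 0.0695 without antibiotics library 1, 3 or 5 and 0.0527 without control library 4.

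Cyp3a11 (ENSMUSG00000056035.8, chromosome 5, 145854426 to 145879964, minus strand), the abundant drug- and bile acid-oxidising enzyme that PXR ligands induce, had the opposite sign. It measured 683, 531, 517, 554 and 674 CPM in controls and 549, 568, 404 and 388 CPM with antibiotics. Libraries 3 and 5 of the antibiotics group lay below every control, and libraries 1 and 2 lay within the control range. The log2 fold change of -0.31 ± 0.14 (SE, 95% interval -0.62 to 0.00) did not pass (adjusted p = 0.271).

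Cyp3a25 (ENSMUSG00000029630.15, chromosome 5, 145977194 to 146009618, minus strand) measured 278, 205, 245, 282 and 178 CPM in controls and 231, 305, 304 and 289 CPM with antibiotics. Antibiotics libraries 2, 3 and 5 lay above every control and library 1 within their range. Its log2 fold change was 0.25 ± 0.14 (SE, 95% interval -0.06 to 0.56, adjusted p = 0.386). Cyp3a59 (ENSMUSG00000061292.10, chromosome 5, 146079257 to 146113287, plus strand), the near copy of Cyp3a25 whose upstream sequence is printed above, measured 7.53, 8.19, 7.76, 6.99 and 5.91 CPM in controls and 5.16, 8.20, 8.18 and 8.71 CPM with antibiotics. Antibiotics library 1 was the lowest of all 9 for Cyp3a59. Its log2 fold change was 0.07 ± 0.15 (SE, 95% interval -0.27 to 0.40, adjusted p = 0.859).

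The transcripts of Cyp3a25 and Cyp3a59 were 97.0% identical over 1991 bases, and both shared stretches of at least 95% identity with Cyp3a57, so estimated counts could be divided between them by the authors' quantification and their levels are uncertain. Per kilobase of exon, Cyp3a25 exceeded Cyp3a59 by 24.0 to 43.0 times in the 9 libraries, with a median of 35.5. Of the other Cyp3a genes of the cluster (Cyp3a16, Cyp3a41a, Cyp3a41b, Cyp3a44 and Cyp3a57), 0 of 5 could be tested, and none had more than 8 counts in any library.

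Relative to Cyp3a11 in the same library, Cyp3a13 was 1.70 times higher with antibiotics. The log2 ratio was -2.70 ± 0.29 in controls (SD, n = 5) and -1.94 ± 0.39 with antibiotics (SD, n = 4; exact permutation test, two-sided p = 0.0159, adjusted over 5 ratios 0.0794). For Cyp3a25 the log2 difference in the ratio to Cyp3a11 was 0.58 (exact p = 0.0556, adjusted 0.0926), and for Cyp3a59 it was 0.36 (exact p = 0.278, adjusted 0.278). None of the 3 passed after adjustment, so unequal change among these Cyp3a genes was not established at this number of libraries.

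**Figure D2:**
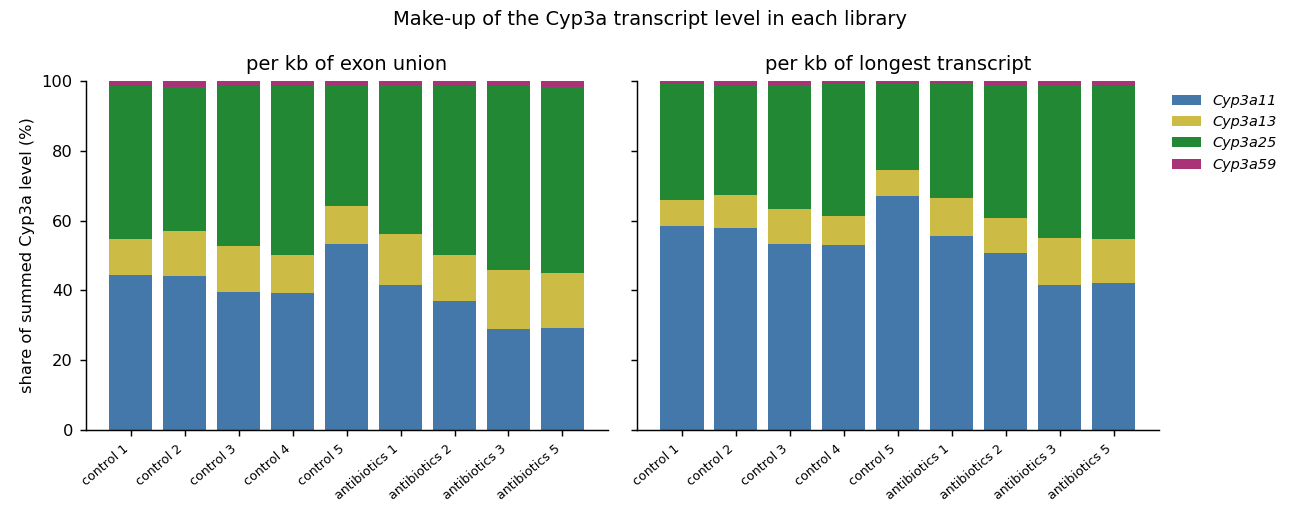
Share (percent) of each Cyp3a gene in the summed Cyp3a level per kilobase of exon, by library. Cyp3a11 took 44.1% on average in controls and 34.1% with antibiotics, and Cyp3a25 took 42.9% and 49.3%.

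Per kilobase of exon, Cyp3a11 made up 44.1 ± 5.78% of the summed level of the 4 Cyp3a genes in controls (SD, n = 5) and 34.1 ± 6.22% with antibiotics (SD, n = 4). Cyp3a25 made up 42.9 ± 5.35% and 49.3 ± 4.86%, Cyp3a13 11.7 ± 1.32% and 15.2 ± 1.54%, and Cyp3a59 1.38 ± 0.23% and 1.37 ± 0.284%. Which of Cyp3a11 and Cyp3a25 led in controls depended on the length used. Divided by the longest transcript in place of all exons, Cyp3a11 took 58.0% and Cyp3a25 32.6% in controls.

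Cyp2b10 (ENSMUSG00000030483.14, chromosome 7, 25897620 to 25926624, plus strand), the classic CAR target, was barely transcribed. It measured 1.83, 2.49, 1.04, 1.95 and 0.367 CPM in controls and 3.07, 5.52, 0.663 and 1.30 CPM with antibiotics, from 10 to 120 counts a library. Antibiotics libraries 1 and 2 were the highest and library 3 was lower than all controls but 1. The log2 fold change was 0.70 ± 0.57 (SE, 95% interval -0.55 to 1.95, adjusted p = 0.551), so the interval spans a fall and a rise, and leaving out single libraries moved the value from 0.05 to 1.02. The Cyp2b10 to Cyp3a11 ratio differed by 0.94 on the log2 scale (exact permutation test, two-sided p = 0.27, adjusted over 5 ratios 0.278).

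Cyp2a5 (ENSMUSG00000005547.14, chromosome 7, 26835305 to 26843548, plus strand) encodes the mouse coumarin hydroxylase, which both receptors and other factors are known to act on. It measured 325, 396, 296, 244 and 204 CPM in controls and 501, 431, 488 and 348 CPM with antibiotics. Antibiotics libraries 1, 2 and 3 lay above every control, and library 5 lay within the control range. The log2 fold change was 0.59 ± 0.18 (SE, 95% interval 0.20 to 0.98), a ratio of 1.51 with an adjusted p of 0.0994, and DESeq2 gave an adjusted p of 0.0233. Its transcript is 98.2% identical to Cyp2a4 over 1739 bases, but Cyp2a4 measured 0.421 CPM in controls and 0.385 CPM with antibiotics, so Cyp2a4 held few of the estimated counts. It is also 96.6% identical to Cyp2a21-ps over 1066 bases, and the level of that copy is not given here.

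Por (ENSMUSG00000005514.14, chromosome 5, 135670033 to 135735326, plus strand), the reductase that feeds electrons to every microsomal P450, had the largest fitted change of the 10. It measured 162, 171, 274, 223 and 287 CPM in controls 1 to 5 and 486, 318, 352 and 475 CPM in antibiotics libraries 1, 2, 3 and 5. All antibiotics libraries lay above all controls, with library 2 the closest. Por rose 1.83-fold, from 223 ± 57.0 CPM (SD, n = 5) to 408 ± 85.4 CPM (SD, n = 4), a log2 fold change of 0.87 ± 0.19 (SE, 95% interval 0.45 to 1.29, adjusted p = 0.0397). It passed in 3 of 9 fits that each left out 1 library, with log2 fold changes from 0.77 to 0.97. The adjusted p was 0.119, 0.0809 and 0.116 without antibiotics library 1, 3 or 5 and 0.0712, 0.0775 and 0.0728 without control library 1, 2 or 4.

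**Figure D3:**
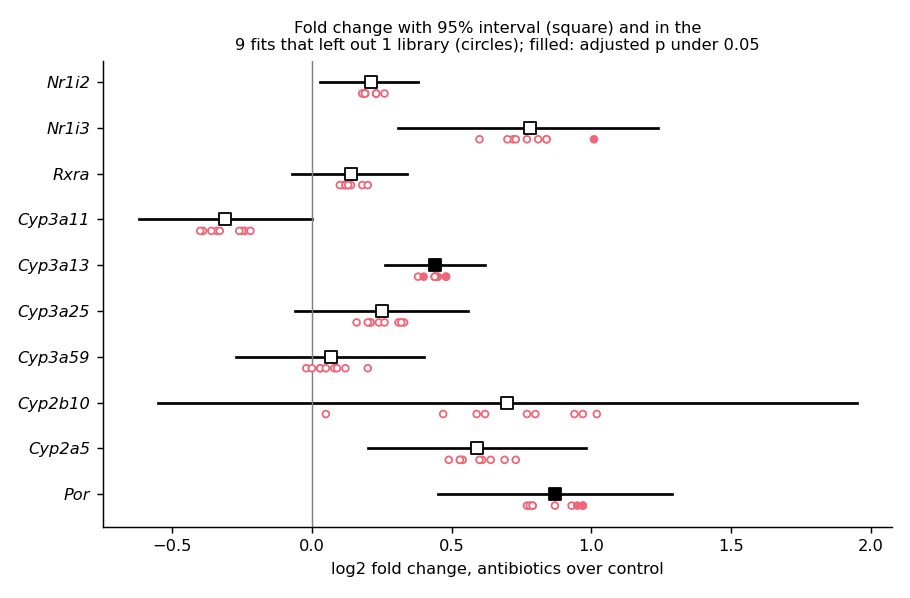
Log2 fold change (antibiotics over control) of the 10 genes with 95% intervals from edgeR. Por (0.87) and Cyp3a13 (0.44) passed an adjusted p of 0.05, and Cyp3a11 (-0.31) was the only value below 0.

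Compared per kilobase of all exons in controls, the levels were, in order, Cyp2a5 (141), Cyp3a11 (116), Cyp3a25 (114), Rxra (77.1), Por (55.5), Cyp3a13 (30.7), Nr1i2 (26.7), Nr1i3 (18.2), Cyp3a59 (3.63) and Cyp2b10 (0.727 CPM per kilobase). Part of this order depended on the length used. Per kilobase of the longest transcript, Cyp3a11 led in controls at 211 ± 28.7 (SD, n = 5), beyond its SD above Cyp2a5 (145 ± 37.0) and Cyp3a25 (119 ± 22.7). Per kilobase of all exons, the ranges of mean ± SD overlapped for Cyp2a5 (141 ± 35.9), Cyp3a11 (116 ± 15.8) and Cyp3a25 (114 ± 21.8). Cyp3a59 and Cyp2b10 were the lowest with either length.

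With antibiotics, Por stood at 101 ± 21.2 CPM per kilobase of all exons (SD, n = 4), beside 84.7 for Rxra and 93.7 for Cyp3a11. By the longest transcript it stood at 155 ± 32.4, above Rxra (94.3) and below Cyp3a11 (170), so its place in the order also turned on the length. Nr1i2 and Nr1i3 stood at 30.9 and 31.1 CPM per kilobase of all exons with antibiotics, but at 30.9 and 46.1 by the longest transcript. No order between the receptor transcripts can therefore be read from these levels.

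Across the 9 libraries, 14 relations between a receptor and a P450 gene or Por were computed on log2 CPM, and 0 passed an adjusted p of 0.05. Nr1i3 and Cyp3a13 had a Pearson r of 0.82 (exact permutation p = 0.00907, adjusted 0.0738) and a Spearman rho of 0.72 (exact permutation p = 0.0369, adjusted 0.235). Without the 2 libraries farthest from the median of Nr1i3 (controls 1 and 5) r was 0.72, and within groups it was 0.48 (exact permutation p = 0.219, adjusted 0.935). Nr1i3 and Por gave a Pearson r of 0.81 (exact permutation p = 0.0111, adjusted 0.0738), 0.88 without the same 2 libraries and 0.48 within groups (exact permutation p = 0.261, adjusted 0.935). Nr1i3 and Cyp3a11 ran in opposite directions, with a Pearson r of -0.77 (exact permutation p = 0.0158, adjusted 0.0738), -0.57 without the same 2 libraries and -0.60 within groups (exact permutation p = 0.0719, adjusted 0.935). For Nr1i2 and Por, r was 0.73 (exact permutation p = 0.028, adjusted 0.0981). It was 0.36 without controls 1 and 2 and 0.35 within groups (exact permutation p = 0.407, adjusted 0.935). Pooled values include the difference between the groups, and 0 of the 14 relations passed within groups.

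**Figure D4:**
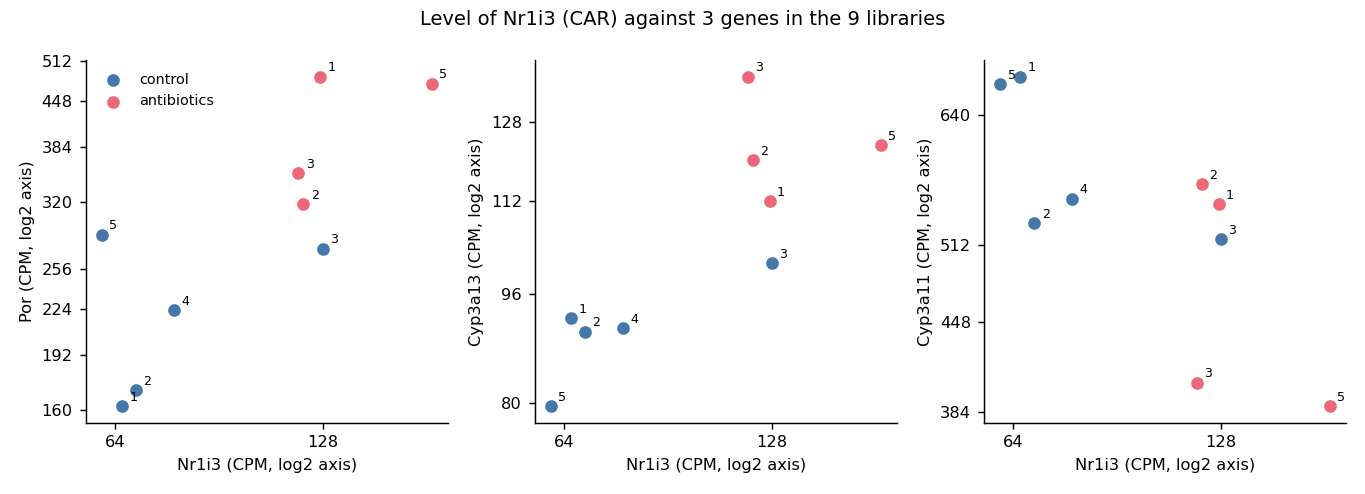
Log2 CPM of Nr1i3 (x axis) against target genes (y axis) in the 9 libraries, coloured by group. Control library 3 lies with the antibiotics libraries along the Nr1i3 axis, and the pooled Pearson r was 0.82 for Cyp3a13, 0.81 for Por and -0.77 for Cyp3a11.

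Mitochondrially encoded mRNAs, a measure of library make-up, also varied between libraries. Their mean log2 level relative to the control mean was 0.27 in control library 3 and between -0.16 and 0.08 in the other controls. It was 0.35, 0.58 and 0.41 in antibiotics libraries 1, 2 and 3 and -0.06 in library 5. All 13 had log2 fold changes above 0 (48.6% of all tested genes did), with a median of 0.32. Of the 13, 0 passed the test (2.68% of all tested genes did), and 4 had an unadjusted p under 0.05 (18.5% did). Antibiotics library 5 had the highest Nr1i3 and control library 3 the next highest. The part of this measure in the values of Nr1i3 was not tested.

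The genes whose profiles over the 9 libraries were most like Nr1i2, Nr1i3, Cyp3a11, Cyp3a13 and Cyp2b10 were found by the root mean square difference of centred log2 CPM among tested genes of at least 10 CPM. For Nr1i3 (own SD 0.52) these were Ctcflos (difference 0.189), Lrp4 (0.190) and Rnf43 (0.237). Lrp4, a receptor of the LDL receptor family, measured 31.1 CPM in control library 3 and 18.1 to 21.7 CPM in the other controls, the same library that stood out for Nr1i3. For Cyp3a11 (own SD 0.264) they were Mgat2 (0.0529), Sec23b (0.0850) and Gfpt1 (0.0896), genes of glycan building and of protein export from the endoplasmic reticulum. Sec23b, for example, measured 50.3 to 67.4 CPM in controls, 54.5 and 53.5 CPM in antibiotics libraries 1 and 2 and 37.6 and 36.7 CPM in libraries 3 and 5. Like Cyp3a11, it was lowest in antibiotics libraries 3 and 5. Lrp4 and Sec23b were picked for likeness over these same 9 libraries, so the libraries they share with Nr1i3 and Cyp3a11 follow from that choice.

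For Cyp3a13 (own SD 0.245) the nearest were Fads6 (0.0633), Etl4 (0.0779) and Gzf1 (0.0822). For Nr1i2 (own SD 0.145) they were Brf1 (0.0504), Gemin2 (0.0605) and Crtc2 (0.0647). Cyp2b10 had no close match, since its nearest genes, Acss3, Slc17a8 and Gstt3, differed by 0.656 to 0.742 beside its own SD of 1.06.

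Other genes known as PXR or CAR targets were described as lists beside the 10. Among other Cyp1 and Cyp2 genes, 7 of 12 could be tested, with a median log2 fold change of 0.11. Of these, 0 rose and 1 fell (1.63% and 1.05% of all tested genes did). Cyp2c29, an abundant arachidonic acid- and drug-oxidising P450 that CAR is known to induce, fell from 1055 ± 258 CPM (SD, n = 5) to 546 ± 168 CPM (SD, n = 4), or by -0.95 on the log2 scale (adjusted p = 0.0472). That call held in 2 of 9 fits with 1 library left out, those without antibiotics library 2 (0.0329) or control library 3 (0.038), and the adjusted p was otherwise 0.0541 to 0.131. Of 13 tested conjugating enzymes, 0 passed, although 8 had an unadjusted p under 0.05 (18.5% of all tested genes did) and 9 lay below 0. Gstm1, a glutathione transferase, measured 1241 ± 404 CPM in controls and 719 ± 55.5 CPM with antibiotics (adjusted p = 0.0619).

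Of 5 drug and bile acid transporters, 1 rose and 0 fell (1.63% and 1.05% of all tested genes did), and the median was -0.08. Slco1a4, an uptake transporter of bile acids and drugs and a known PXR target, went from 15.3 ± 4.07 CPM (SD, n = 5) to 32.3 ± 2.22 CPM (SD, n = 4). Its log2 fold change was 1.07 ± 0.17 (SE, adjusted p = 0.0140), and it passed in 9 of 9 fits with 1 library left out. Of 11 other targets, 0 rose and 1 fell, with a median of 0.10. Ephx1, the microsomal epoxide hydrolase and a known CAR target, fell from 238 ± 53.5 to 151 ± 9.02 CPM, or by -0.66 ± 0.14 on the log2 scale (SE, adjusted p = 0.0392). It kept that call only without control library 1 (0.0412) or 3 (0.0297), and the adjusted p was otherwise 0.0534 to 0.116.

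**Figure D5:**
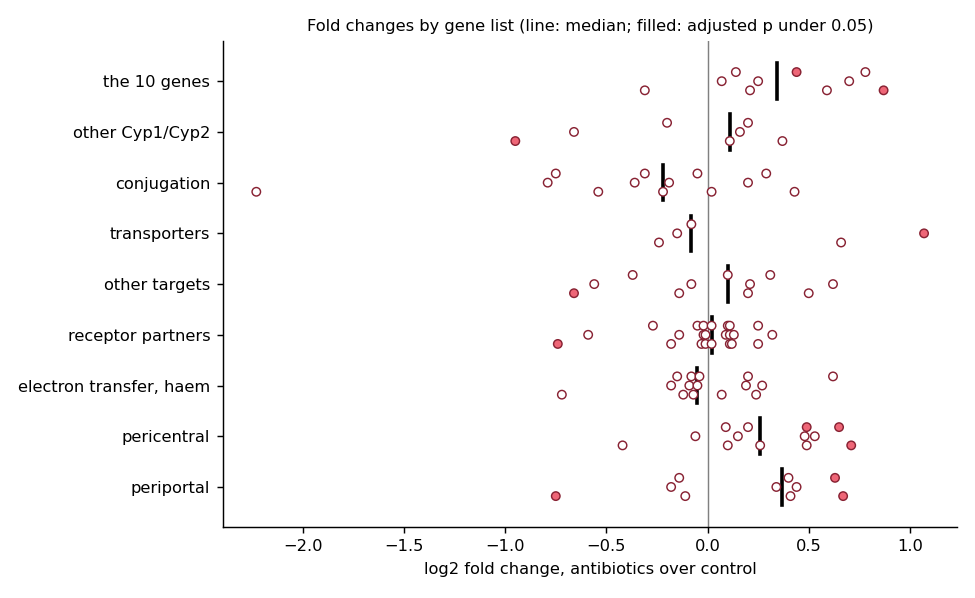
Log2 fold changes (antibiotics over control) of the 10 genes and of the tested genes in 8 lists (targets, partners, electron transfer and haem, and zonation; cell type markers are not drawn), with medians marked. Filled points passed an adjusted p of 0.05, and the medians drawn run from -0.22 for conjugating enzymes to 0.37 for periportal genes.

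Among 23 tested partner receptors and coregulators, 0 rose and 1 fell (1.63% and 1.05% of all tested genes did), with a median of 0.02. The gene that fell was Nr0b2, encoding SHP, a bile acid-induced repressor that binds several nuclear receptors, with a log2 fold change of -0.74 (28.4 ± 6.53 to 17.0 ± 1.02 CPM, adjusted p = 0.0322). It passed in 4 of 9 fits with 1 library left out, and the adjusted p was 0.0915, 0.0673, 0.0827 and 0.0789 without antibiotics library 1, 2, 3 or 5 and 0.0625 without control library 4. Por works with other electron carriers and with haem. Of 15 genes for other electron carriers and for haem synthesis or breakdown, 0 passed, 3 had an unadjusted p under 0.05 (18.5% of all tested genes did) and the median was -0.05. Alas1, the rate-limiting enzyme of haem synthesis and a known PXR and CAR target, measured 246 ± 154 CPM in controls and 377 ± 180 CPM with antibiotics (adjusted p = 0.478).

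Most of the P450 genes here are known to be highest in hepatocytes near the central vein, so zonation markers were counted in the same fit. Of all tested genes, 1.63% passed higher and 1.05% lower with antibiotics. Of 13 pericentral genes, 3 rose (Oat, Lhpp and Rnf43) and 0 fell, with a median of 0.26. Glul, which marks the hepatocytes next to the vein, measured 902 ± 108 CPM in controls and 865 ± 34.5 CPM with antibiotics (adjusted p = 0.792). Of 10 periportal genes, 2 rose (Asl and Sds) and 1 fell (Cdh1), with a median of 0.37. Members of both zones thus rose, and the part of zonation in the values of Por and Cyp3a13 was not tested. With 1 library left out, these calls held in 7 of 9 fits for Oat (lost without antibiotics library 1 or 3, at 0.0678 and 0.0647), 6 for Lhpp (lost without antibiotics library 1, 3 or 5, at 0.0640, 0.0603 and 0.0533) and 8 for Asl (lost without antibiotics library 1, at 0.0544). They held in 2 fits for Rnf43 (without control library 3 or 5, otherwise 0.0554 to 0.0996), 1 for Sds (without control library 4, otherwise 0.0574 to 0.109) and 1 for Cdh1 (without control library 2, otherwise 0.0504 to 0.111).

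Dbp, Tef and Hlf, chosen after their values were seen, encode the PAR bZIP transcription factors, which follow the circadian clock and are known to act on Nr1i3 and Por in liver. Dbp measured 66.6, 61.7, 73.7, 53.2 and 62.5 CPM in controls and 106, 95.9, 115 and 130 CPM with antibiotics, with no overlap between the groups. Its log2 fold change was 0.82 (adjusted p = 0.00767), and it passed in 9 of 9 fits with 1 library left out. Tef went from 139 ± 21.7 CPM to 205 ± 19.1 CPM, a rise of 0.56 on the log2 scale (adjusted p = 0.0328). Hlf went from 39.6 ± 4.50 CPM to 53.9 ± 3.94 CPM, a rise of 0.44 (adjusted p = 0.0330). Tef passed only without antibiotics library 2 or control library 3 or 5 (adjusted p otherwise 0.0546 to 0.0972), and Hlf only without control library 3 or 5 (otherwise 0.0546 to 0.0959). Control library 3, the control with the highest Nr1i3, was also the highest control for Dbp, Tef and Hlf. Por, in contrast, was highest in control library 5 (287 CPM), with library 3 next (274 CPM). In control library 5, Tef (118 CPM) and Hlf (35.1 CPM) were the lowest of the controls, while Dbp (62.5 CPM) was not. The labels give no hour of collection, and the part of these factors in the levels of Nr1i3 and Por was not tested. Of the 10 promoters searched on both strands for the letters TTATGTAA and TTATGCAA, which such factors are known to bind, those of Cyp2b10 and Cyp2a5 each held TTATGCAA once, as did 0.744% of all promoter windows of 250 bases.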

How the data were processed

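The authors deposited a table of estimated counts per gene, and the submitters' processing notes name Salmon and GRCm38. The Salmon version and the annotation were not given in the sources used here. Values were all whole numbers and were used as deposited, and the identifiers occur in GENCODE M21, which gave positions and lengths. Genes were kept by filterByExpr (minimum count 10, minimum total 15) in edgeR 4.0.16 (R 4.3.3), scaled by TMM and fitted over all 14873 tested genes with the quasi-likelihood F test, group as the only term, Benjamini-Hochberg adjustment and a threshold of 0.05. The SE is the log2 fold change divided by the square root of F. Library totals, from 15422891 to 59179622, and a biological coefficient of variation of 16.7% set the precision. Log2 ratios within a library used counts plus 0.5. Tested on simulated counts for these 14873 genes, the fit made 157 calls, of which 11 were false. No pair of libraries of a group agreed within sampling noise (lowest chi-square per degree of freedom 20.2).

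The 10 genes and all lists were chosen with earlier results of these data known. Named genes were the 10, up to 3 list members with the smallest p, and the 3 closest profiles for 5 of the 10. Ces6, on a list, is not a symbol of that annotation. Alternatives were RLE and upper-quartile factors, library totals, library sizes without the 10 most abundant genes, DESeq2 1.42.0, limma-voom (limma 3.58.1), other filters, thinning to the smallest total, a block for the replicate number, and leaving out each library in turn. Close copies were found with BLAST+ 2.17.0 (at least 95% identity over 200 bases).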

Additional observations from a re-analysis of the deposited data

Results flagged for a closer look

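Among 20 groups of values (10 genes in the control and antibiotics groups), 3 held a library far from the others by Dixon's criterion at the 95% level, which chance gives in about 1 of 20 groups. Nr1i3 was 128 CPM in control library 3, against 61.3 to 77.9 CPM in the other controls. Nr1i3 was 184 CPM in antibiotics library 5, against 118 to 127 CPM in the other antibiotics libraries, and without that library its log2 fold change was 0.60 (edgeR, adjusted p = 0.208). Cyp3a59 was 5.16 CPM in antibiotics library 1, against 8.18 to 8.71 CPM in the other 3, and without that library its log2 fold change was 0.20 (edgeR, adjusted p = 0.494).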

How the results depend on the processing

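Of 190 refits of single genes among the 10, 175 kept their direction and their side of the threshold, 11 lost a call, 3 gained one and 1 changed sign (Cyp3a59 at -0.02 without antibiotics library 5). Only Cyp3a13 and Por had a call to lose, and they passed in 15 of 19 and 12 of 19 refits. With 1 library left out, Por ran from 0.77 to 0.97, Cyp3a13 from 0.38 to 0.48, Nr1i3 from 0.60 to 1.01 and Cyp3a59 from -0.02 to 0.20. With edgeR 398 genes passed, and 975 passed with DESeq2, 937 at an adjusted p under 0.10 and 36 to 455 with 1 library left out. Of the 10 genes, 4 passed with DESeq2 (Nr1i3 at 0.77 and Cyp2a5 at 0.59 besides Por and Cyp3a13), 4 at an adjusted p under 0.10 and 0 to 3 with 1 library left out. DESeq2, which passed 6.57% of all genes it could adjust, passed 2 of 7 other Cyp1 and Cyp2 genes, 3 of 13 conjugating enzymes and 2 of 23 partners. It also passed 1 of 15 electron carrier or haem genes, 5 of 13 pericentral and 6 of 10 periportal genes. With 1 library left out, when 36 to 455 of all genes passed, these counts were, in the same order, 0 to 1, 0 to 2, 0 to 2, 0 to 0, 0 to 4 and 0 to 2. Other targets had 0 to 1 and transporters 1 to 1. With controls and antibiotics libraries of the same number as a replicate block (8 libraries), 179 genes passed, and 1 of the 10 (Cyp3a13), 0 partners and 1 electron carrier or haem gene, with Por at 0.89 (adjusted p = 0.0636). Deviations from group means had correlations of -0.06 to 0.10 for same-numbered libraries and -0.11 to 0.12 for libraries of different numbers. With so few same-numbered pairs, these values cannot show whether the numbers pair the libraries. Without the 2 farthest libraries, r of Nr1i2 and Cyp3a59 turned from -0.11 to 0.08 and r of Nr1i3 and Cyp2b10 from 0.17 to -0.23. Leaving out 1 library moved the log2 ratio differences to 0.42 to 0.75 (Nr1i3 to Nr1i2), 0.63 to 0.88 (Cyp3a13), 0.43 to 0.75 (Cyp3a25), 0.19 to 0.61 (Cyp3a59) and 0.45 to 1.37 (Cyp2b10, each to Cyp3a11). By longest transcript, control shares were 58.0% (Cyp3a11), 8.48% (Cyp3a13), 32.6% (Cyp3a25) and 1.01% (Cyp3a59), since the lengths changed. The cause of the other changes was not tested. Depth limits Cyp2b10 most, at 10 to 120 counts a library.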

Other observations

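Cyp2b9, a close relative of Cyp2b10 in the same gene cluster, had 6, 29, 0, 7 and 0 counts in controls 1 to 5 and 8, 18, 0 and 15 counts in antibiotics libraries 1, 2, 3 and 5. The 3 libraries without a Cyp2b9 count, controls 3 and 5 and antibiotics library 3, were also those with the least Cyp2b10 (1.04, 0.367 and 0.663 CPM). A count of 0 there allows up to 0.0920, 0.110 and 0.166 CPM, counting error only.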
